A study of Homo sapiens with 6 samples.

Results

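The EGF receptor family was followed through 8 genes, the receptors EGFR and ERBB2 and the ligands AREG, EREG, HBEGF, TGFA, NRG1 and BTC, in RNA of MDA-MB 231 cells. The genes were found by their symbols, and all 8 of the 24462 symbols listed were present and passed the filter on low counts that 12650 symbols passed. MDA-MB 231 is an established triple-negative breast cancer line with mesenchymal features. The cells were collected 48 h after transfection with a negative control (NC) mimic, with the miR-200a mimic (100 nM), or with the miR-200a mimic (100 nM) and an expression plasmid for ELK3 (30 ng), an ETS-family transcription factor. Each of the 3 groups had 2 libraries. The sample labels call the plasmid pcDNA3.1 Hygro(+)-ELK3 and the protocol calls it pcDNA3.1-Flag-ELK3. It holds the ELK3 coding region without the 3′UTR, and no empty plasmid is named for the other groups, so the ELK3 protein and the plasmid itself cannot be told apart as the difference between the groups.

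The members of the EGF receptor family are tyrosine kinases of the cell surface that pair when a ligand binds and then signal through RAS and the MAP kinases and through PI3 kinase. The ligands are made as membrane-anchored precursors, and proteases of the ADAM family cut them free. AREG, TGFA, EREG, HBEGF and BTC bind EGFR, and EREG, HBEGF and BTC also bind ERBB4. NRG1 binds ERBB3 and ERBB4, whereas ERBB2 has no known ligand and acts as the partner of the other receptors. Basal-like and mesenchymal breast cancer lines are known for high EGFR and for autocrine ligand production.

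The mimic stands for the miRNA hsa-miR-200a-3p, which pairs with its targets through the seed. The sequence is given by RefSeq (GRCh38.p14, chr1:1167916-1167937, plus strand). It is shown because the seed, bases 2 to 8 and in capitals, sets which 3′UTRs of the family can be paired.
hsa-miR-200a-3p: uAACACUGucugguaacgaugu
The matching site in a transcript is CAGTGTT, and the form followed by A is CAGTGTTA. In the 3′UTRs of GENCODE release 29 (GRCh38, 1 transcript a gene), 19.7% of the 11234 tested genes with a 3′UTR held at least 1 site on the transcript strand. EGFR was the member that held one, with 2 sites, and the other 7 members held 0. The family thus had 1 of 8 genes with a site, or 12.5%. The EGFR sites are shown in capitals with their flanking bases, the first at chr7:55207105-55207111 and the second at chr7:55210080-55210086, both on the plus strand and in the 3′UTR.
EGFR first site: gtcctttgtaaaCAGTGTTttaaactct
EGFR second site: gttctgttggggCAGTGTTaatggaaag
The second of these is followed by A. They start 1488 and 4463 bases into a 3′UTR of 6011 bases, and 56.6% of the 564 3′UTRs within 20% of that length held at least 1 site. ERRFI1, the cytoplasmic inhibitor that binds the active EGFR kinase, held 1 site followed by A (chr1:8012355-8012361, minus strand), in a 3′UTR of 1491 bases. Of the 1521 3′UTRs within 20% of that length, 18.2% held at least 1 site.
ERRFI1 site: tattctaggtgcCAGTGTTaggatgtca
The 3′UTR searched was 269 bases for AREG, 618 for ERBB2, 1456 for HBEGF, 1918 for BTC, 3579 for TGFA and 3943 for EREG. The NRG1 transcript used has a 3′UTR of 5 bases, so the search says nothing about NRG1. EPGN, PTPN11, DUSP6 and ELK3, which are described below, also held 1 site each. A site is a match of letters, and pairing was not measured. The counts were made on hg19, so these GRCh38 positions describe the sequences alone.

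Each library was made with the QuantSeq 3′ mRNA method, which reads polyadenylated RNA close to its end, and the deposited values are reads counted per gene symbol without normalization. Total counts ranged from 3055915 to 4868004 per library, and 3 counts corresponded to 0.611 to 0.979 CPM (reads of a gene per 1000000 reads of its library, the library size as adjusted by edgeR's TMM method). These floors cover counting error alone. All 6 libraries entered 1 model in edgeR, the groups were set against each other by its quasi-likelihood test, and a gene was called when its p, adjusted by the Benjamini-Hochberg method over the 12650 genes, was under 0.05. The methods speak of independent experiments for the statistics in general, and neither they nor the labels say whether the 2 libraries of a group came from separate cultures, so the p-values measure the spread between these libraries, which may be technical. The 2 libraries of the third group, labelled miR-200a plus ELK3, stood further apart than the others, with a root mean square difference in log2 CPM of 0.56 against 0.40 between the NC mimic libraries and 0.34 between those of miR-200a. In bulk RNA, fewer cells with a transcript and less of it per cell cannot be told apart.

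ELK3 itself was read first as a check of the labels. Its level was 138 and 166 CPM under the NC mimic, 102 and 103 CPM under miR-200a, and 96.2 and 79.2 CPM in the pair labelled miR-200a plus ELK3. The group named for ELK3 was thus lowest in both of its libraries. ELK3 fell by 0.79 on the log2 scale (adjusted p = 0.0117) in that group against the NC mimic, and its log2 fold change against miR-200a was -0.23 (adjusted p = 0.354). A 3′ method may not count plasmid RNA that lacks the 3′UTR as ELK3, so this value does not check the plasmid. The pair labelled miR-200a plus ELK3 is therefore called the ELK3-labelled libraries. The 6 markers of the line (VIM, CD44, CAV1, AXL, MSN and ZEB1) were above 3 counts in every library. Their summed level was 4590 to 4860 CPM under the NC mimic, 4600 to 4800 under miR-200a, and 3270 to 4180 in the ELK3-labelled libraries. Of 9 luminal or epithelial markers, ESR1 was at 0 in all libraries, and 4 were above 3 counts in every library. The sum was 262 to 273, 353 to 355 and 234 to 278 CPM in the same order. CLDN4 supplied most of it, with mean levels of 186, 234 and 195 CPM, and CLDN7 had 64.1, 80.8 and 34.9 CPM. EPCAM had 10.9, 28.8 and 19.5 CPM. CDH1, at or below the floor except under miR-200a, had 0.111, 2.36 and 0.708 CPM. The part of these shifts in the results below was not tested.

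**Figure D1:**
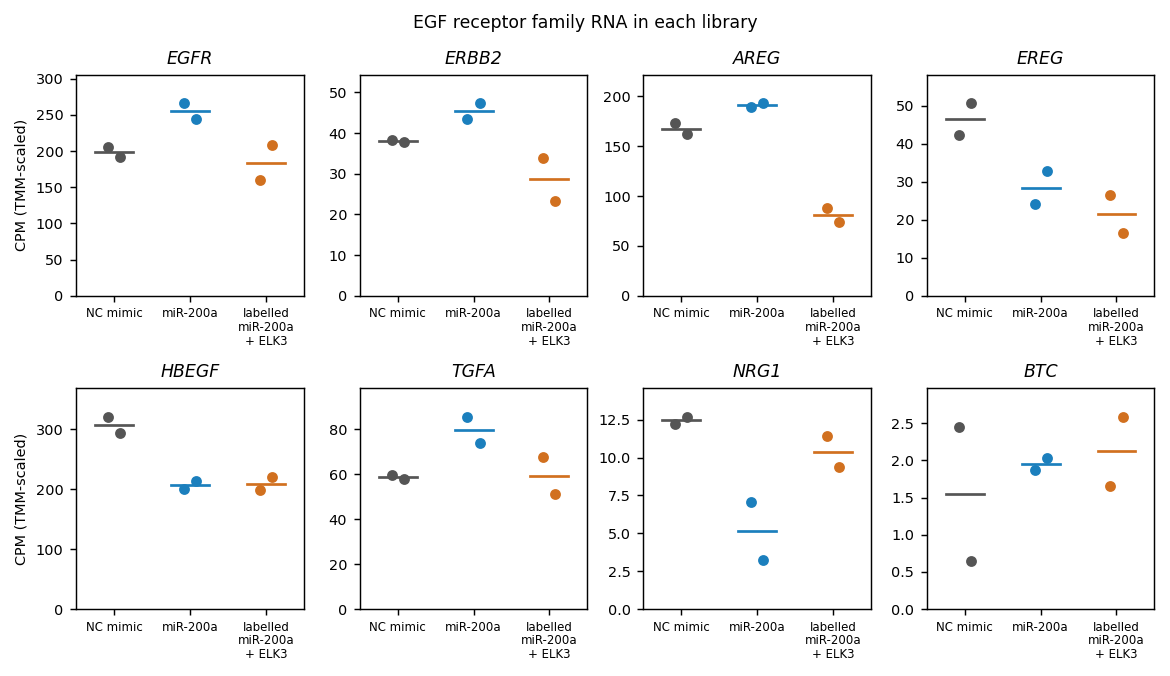
Level of each of the 8 EGF receptor family genes (TMM-scaled CPM, linear axes from 0) in every library. Points are the 2 libraries of each group and lines their mean. AREG lay at 162 to 193 CPM in the NC mimic and miR-200a libraries and at 87.6 and 74.3 CPM in the ELK3-labelled libraries.

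The receptor EGFR had 919 and 589 counts under the NC mimic, 1279 and 1201 under miR-200a, and 676 and 885 in the ELK3-labelled libraries. As levels these were 205 and 192, 266 and 245, and 160 and 208 CPM. The miR-200a libraries were highest and did not overlap either group, while the NC mimic and the ELK3-labelled libraries overlapped. With 2 libraries a group, groups separate readily, and the share of all tested genes that do is not given here. Here and below, a lack of overlap describes the libraries and is not a difference that passed a test. The gene lies at chr7:55019021-55211628 (GRCh38). Whether the mimic acts through the 2 EGFR seed sites was not tested. EGFR-AS1, an antisense gene that shares exon bases with EGFR, had 0 to 1 counts.

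ERBB2, the receptor without a ligand and the gene amplified in HER2-positive tumours, was at 38.3 and 37.9 CPM under the NC mimic, 43.4 and 47.3 under miR-200a, and 33.9 and 23.3 in the ELK3-labelled libraries. The miR-200a libraries were highest and the ELK3-labelled ones, with 143 and 99 counts, lowest, and no pair of groups overlapped. PGAP3, on the opposite strand, overlaps 194 exon bases of ERBB2 and had 9 to 24 counts, and the strand setting of the counting is not given in the sources used here. ERBB2 lies at chr17:39687914-39730426.

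AREG encodes amphiregulin, an EGFR ligand known as an autocrine growth factor of breast epithelium. It had 778 and 495 counts under the NC mimic, 911 and 946 under miR-200a, and 370 and 316 in the ELK3-labelled libraries. As levels these were 173 and 162, 189 and 193, and 87.6 and 74.3 CPM. The NC mimic and miR-200a libraries lay close together and the ELK3-labelled libraries far below both. The hg19 assembly carries an extra copy of the gene, AREGB, and how reads that match both copies were counted is not given, so the absolute count of AREG is uncertain.

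EREG encodes epiregulin, which binds EGFR and ERBB4. Its level was 42.3 and 50.6 CPM under the NC mimic, 24.1 and 32.8 under miR-200a, and 26.5 and 16.5 in the ELK3-labelled libraries. Both NC mimic libraries were above the other 4, and the miR-200a libraries overlapped the ELK3-labelled ones. The counts behind these levels ran from 70 to 190.

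HBEGF encodes heparin-binding EGF-like growth factor. It was at 321 and 293 CPM under the NC mimic, 201 and 213 under miR-200a, and 198 and 220 in the ELK3-labelled libraries. The NC mimic libraries stood above the other 4, which overlapped. HBEGF lies at chr5:140332843-140346631, on the minus strand, and its counts ran from 835 to 1443.

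TGFA, the transforming growth factor alpha that binds EGFR alone, was at 59.5 and 58.1 CPM under the NC mimic, 85.7 and 74.0 under miR-200a, and 67.7 and 51.2 in the ELK3-labelled libraries. Here miR-200a was the highest group, and the other pair of groups overlapped. NRG1, the neuregulin that binds ERBB3 and ERBB4, was at 12.2 and 12.7 CPM under the NC mimic, 7.06 and 3.26 under miR-200a, and 11.4 and 9.40 in the ELK3-labelled libraries. Its miR-200a libraries were lowest, with 34 and 16 counts, and no pair of groups overlapped.

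BTC, betacellulin, was close to the limit of detection. It had 11 and 2 counts under the NC mimic, 9 and 10 under miR-200a, and 7 and 11 in the ELK3-labelled libraries. All groups overlapped, and a difference was not detectable at this depth.

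Together the 8 genes took 0.0845% and 0.0809% of all counts under the NC mimic, 0.0825% and 0.0816% under miR-200a, and 0.0586% and 0.0592% in the ELK3-labelled libraries. The 6 ligands summed to 611 and 577, 509 and 517, and 393 and 373 CPM in that order, and the receptor pair to 243 and 230, 309 and 292, and 194 and 231 CPM. HBEGF and AREG supplied most of the ligand counts. These sums are descriptions and were not tested.

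The first comparison, miR-200a against the NC mimic, asked what the mimic alone did. In the model of all 6 libraries, 0 of the 8 genes were called, where 0.269% of all tested genes were called. An unadjusted p under 0.05 was found for 5 members, beside 1169 of the 12650 tested genes. On the log2 scale, the fold change stood at 0.36 for EGFR (standard error 0.15, adjusted p = 0.490) and at 0.44 for TGFA (standard error 0.17, adjusted p = 0.480). HBEGF stood at -0.57 (standard error 0.12, adjusted p = 0.113), EREG at -0.70 (standard error 0.25, adjusted p = 0.405) and NRG1 at -1.27 (standard error 0.37, adjusted p = 0.274). AREG stood at 0.19 (standard error 0.13, adjusted p = 0.731), ERBB2 at 0.25 (standard error 0.20, adjusted p = 0.774) and BTC at 0.22 (standard error 0.64, adjusted p = 0.965). The median over the 8 genes was 0.20, beside -0.02 over all tested genes.

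These calls turned on the libraries of the third group. With the 4 libraries of the compared groups alone in edgeR's quasi-likelihood test, 5 of the 8 genes were called, where 7.90% of all tested genes were (4.77% higher and 3.12% lower). EGFR (log2 fold change 0.38, adjusted p = 0.00105) and TGFA (0.46, adjusted p = 0.0113) were higher with miR-200a. HBEGF (-0.56, adjusted p = 2.48e-06), EREG (-0.67, adjusted p = 0.00612) and NRG1 (-1.25, adjusted p = 0.0146) were lower. Leaving out either ELK3-labelled library from the full model left the log2 fold change of EGFR at 0.38 and that of EREG at -0.68. The log2 fold changes of the 8 genes moved by at most 0.03 between the full model and that of 4 libraries, whereas the standard error went from 0.15 to 0.08 for EGFR and from 0.12 to 0.07 for HBEGF. In the model of 4 libraries the EGFR ligands thus went both ways, TGFA higher and HBEGF and EREG lower. In the 1 transcript searched for each, 0 of these 3 genes held a seed site, while EGFR, called higher, held 2. Of the 3′UTRs within 20% of their length, 41.7% for TGFA, 17.5% for HBEGF and 45.6% for EREG held at least 1. The part of seed sites in these changes was not tested.

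**Figure D2:**
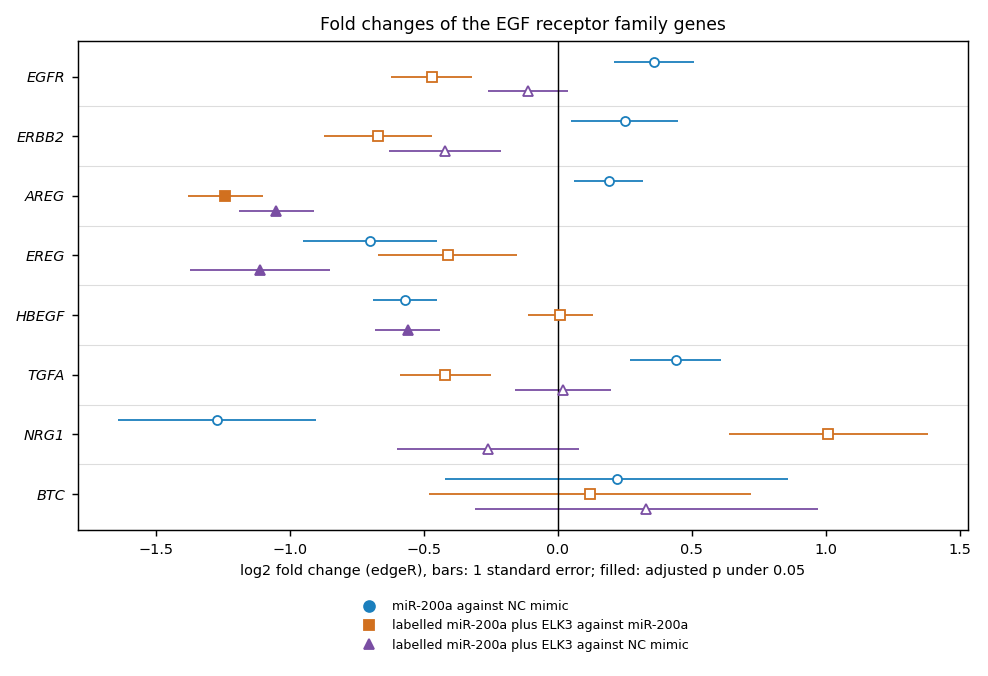
Log2 fold change of each of the 8 genes in the 3 comparisons (edgeR, all 6 libraries). Bars are 1 standard error and filled symbols mark an adjusted p under 0.05. AREG is filled in both comparisons of the ELK3-labelled libraries, at -1.24 and -1.05, and EREG and HBEGF in the one against the NC mimic, at -1.11 and -0.56.

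The next comparison set the ELK3-labelled libraries against miR-200a, to see what the plasmid changed on top of the mimic. AREG fell by 1.24 on the log2 scale (standard error 0.14, adjusted p = 0.00143), to 0.424 of its miR-200a level, from 191 ± 2.55 to 80.9 ± 9.45 CPM (SD, n = 2). It was the 1 member called of 8, where 12.9% of all tested genes were called (7.03% higher and 5.91% lower), so the count for the family did not stand above that of all genes. At an unadjusted p under 0.05 there were 5 members, beside 3867 of the 12650 tested genes. AREG kept its call in 13 of 13 alternative settings, at log2 fold changes of -1.36 to -1.17 and adjusted p-values of up to 0.0498.

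Both receptors came close to the threshold, with log2 fold changes of -0.47 (standard error 0.15, adjusted p = 0.0588) for EGFR and -0.67 (standard error 0.20, adjusted p = 0.0553) for ERBB2. Whether they were called depended on the setting and on the libraries used. In edgeR with all 6 libraries, upper-quartile normalization called EGFR (adjusted p = 0.0432) and ERBB2 (adjusted p = 0.0393). No filter on low counts also called both (adjusted p = 0.0162 and 0.0154). At least 10 counts in each library called EGFR (adjusted p = 0.0493) and not ERBB2 (adjusted p = 0.0516). DESeq2, limma, the replicate block and the compared groups alone called neither. Without replicate 1 of the ELK3-labelled libraries, EGFR stood at -0.29 (adjusted p = 0.0132) and ERBB2 at -0.96 (adjusted p = 0.000161). Without replicate 2, EGFR stood at -0.72 (adjusted p = 1.51e-06) and ERBB2 at -0.46 (adjusted p = 0.0587). Without an NC mimic or miR-200a library neither was called, at adjusted p-values of up to 0.343 for EGFR and 0.308 for ERBB2. The 2 libraries pulled the receptors in opposite directions, since EGFR was lower in replicate 1 and ERBB2 in replicate 2.

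Among the other ligands, NRG1 stood at 1.01 on the log2 scale (standard error 0.37, adjusted p = 0.0970), from 5.16 ± 2.69 to 10.4 ± 1.39 CPM (SD, n = 2). TGFA stood at -0.42 (standard error 0.17, adjusted p = 0.128) and EREG at -0.41 (standard error 0.26, adjusted p = 0.322). Without replicate 1 of the ELK3-labelled libraries, TGFA stood at -0.64 (adjusted p = 0.000919) and EREG at -0.79 (adjusted p = 0.00894). Without replicate 2 of that group, TGFA stood at -0.28 (adjusted p = 0.160), EREG at -0.14 (adjusted p = 0.679) and NRG1 at 1.10 (adjusted p = 0.0417). EREG stood at -0.16 (adjusted p = 0.831) and NRG1 at 0.55 (adjusted p = 0.488) without miR-200a replicate 2, and NRG1 at 1.66 (adjusted p = 0.127) without miR-200a replicate 1. HBEGF, at 0.01 (standard error 0.12, adjusted p = 0.953), and BTC, at 0.12 (standard error 0.60, adjusted p = 0.916), showed no difference that passed the test in any setting run. The median over the 8 genes was -0.41, beside 0.02 over all tested genes. With the model of these 4 libraries alone, AREG was again the 1 member called (adjusted p = 0.0172), where 4.58% of all tested genes were called and 2.27% were called lower.

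The last comparison set the ELK3-labelled libraries against the NC mimic. It shares libraries with each of the others and is not independent of them. Of the 8 genes, 3 ligands of EGFR (37.5%) were called lower, where 12.9% of all tested genes were called (6.92% higher and 5.95% lower). AREG fell by 1.05 on the log2 scale (standard error 0.14, adjusted p = 0.00192), EREG by 1.11 (standard error 0.26, adjusted p = 0.0225) and HBEGF by 0.56 (standard error 0.12, adjusted p = 0.0192). These correspond to 0.483 of the NC mimic level for AREG, 0.465 for EREG and 0.679 for HBEGF. The remaining members were not called, at log2 fold changes of -0.42 for ERBB2 (standard error 0.21, adjusted p = 0.207), -0.26 for NRG1 (standard error 0.34, adjusted p = 0.650), -0.11 for EGFR (standard error 0.15, adjusted p = 0.659), 0.02 for TGFA (standard error 0.18, adjusted p = 0.963) and 0.33 for BTC (standard error 0.64, adjusted p = 0.763). The median over the 8 genes was -0.34, beside 0.01 over all tested genes.

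The 3 called ligands reached this comparison by different steps. AREG had log2 fold changes of 0.19 for the mimic and -1.24 for the ELK3-labelled libraries against it, HBEGF of -0.57 and 0.01, and EREG of -0.70 and -0.41. TGFA, EGFR and NRG1 had values of opposite sign in these steps, 0.44 and -0.42, 0.36 and -0.47, and -1.27 and 1.01, and ended at 0.02, -0.11 and -0.26. The steps share the miR-200a libraries, and the reversal was not tested.

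**Figure D3:**
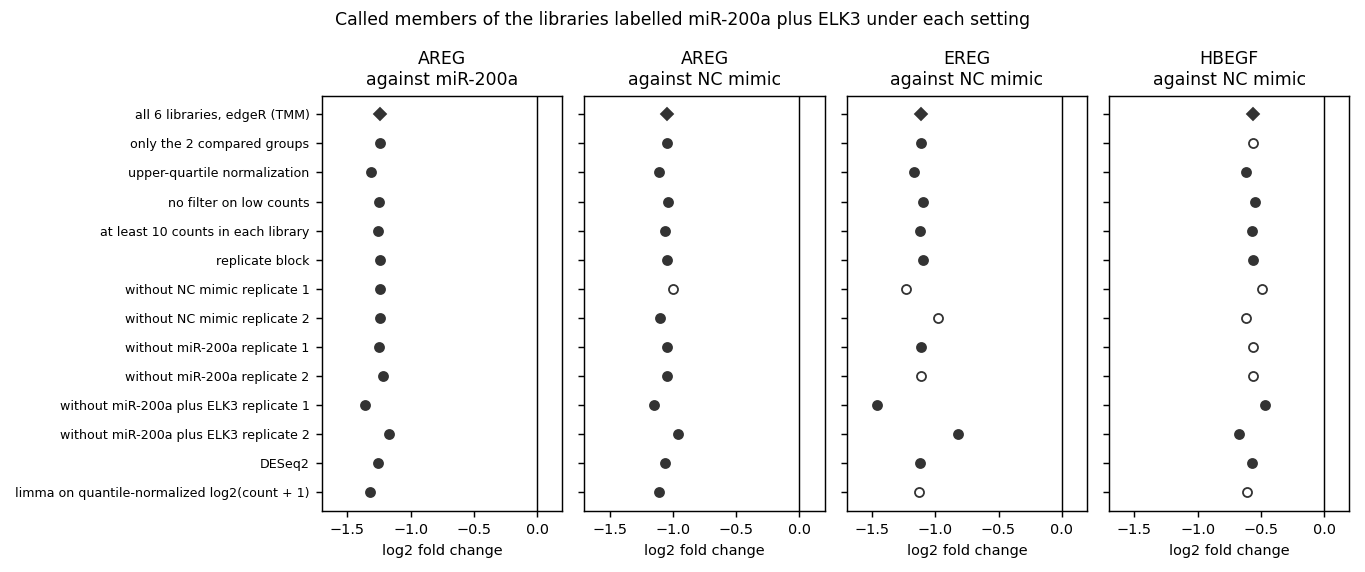
Log2 fold change of the 4 called results of the family in the ELK3-labelled libraries, under the fit reported (diamond) and 13 alternatives (circles). Filled symbols mark an adjusted p under 0.05. AREG against miR-200a is filled in all 13, and HBEGF against the NC mimic in 7.

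Part of these calls changed when a library was left out, also one outside the comparison, and the model then had fewer residual degrees of freedom. Against the NC mimic, AREG lost its call without NC mimic replicate 1 (adjusted p = 0.0589). EREG lost it without NC mimic replicate 1 (-1.23, adjusted p = 0.118), NC mimic replicate 2 (-0.98, adjusted p = 0.191) or miR-200a replicate 2 (-1.11, adjusted p = 0.0506). HBEGF lost it without NC mimic replicate 1 (-0.49, adjusted p = 0.176), NC mimic replicate 2 (-0.62, adjusted p = 0.129), miR-200a replicate 1 (-0.56, adjusted p = 0.0695) or miR-200a replicate 2 (-0.56, adjusted p = 0.0692). Other members gained a call. Without replicate 1 of the ELK3-labelled libraries, ERBB2 stood at -0.69 (adjusted p = 0.00651) and EGFR at 0.09 (adjusted p = 0.516). Without replicate 2, EGFR stood at -0.34 (adjusted p = 0.0128) and ERBB2 at -0.20 (adjusted p = 0.485). Limma did not call EREG (adjusted p = 0.0785) or HBEGF (adjusted p = 0.0875). With the model of these 4 libraries alone, AREG (adjusted p = 0.0151) and EREG (adjusted p = 0.0487) were called and HBEGF was not (adjusted p = 0.0687), where 4.73% of all tested genes were called and 2.38% were called lower.

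The call rule given in the methods of the study (unadjusted p under 0.05, fold change over 1.5, abundance over 3) was also applied to these fits. EREG and NRG1 passed it with the mimic alone, where 4.57% of all tested genes did. AREG, ERBB2 and NRG1 passed it for the ELK3-labelled libraries against miR-200a, where 19.1% did, and AREG and EREG against the NC mimic, where 19.4% did. EGFR, HBEGF, TGFA and BTC did not pass it in any comparison.

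Of the family genes outside these 8, ERBB3, the kinase-impaired receptor for NRG1, had 21 and 11 counts under the NC mimic, 27 and 26 under miR-200a, and 9 and 7 in the ELK3-labelled libraries. The last pair was lowest and did not overlap the others. ERBB3 fell by 1.52 on the log2 scale (standard error 0.43, adjusted p = 0.0439) against miR-200a, a call that 3 of 12 alternatives kept, among them not DESeq2 (adjusted p = 0.139). It was lost with NC mimic replicate 1 left out (-1.52, adjusted p = 0.0807), NC mimic replicate 2 (-1.52, adjusted p = 0.0794), miR-200a replicate 1 (-1.47, adjusted p = 0.212), miR-200a replicate 2 (-1.56, adjusted p = 0.204) or replicate 2 of the ELK3-labelled libraries (-1.39, adjusted p = 0.0840). ERBB4, the fourth receptor, had 1 count in 1 NC mimic library and 0 in the other 5, so its RNA was at or below the floor of 3 counts throughout.

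EGF, the founding ligand, had 9 and 14 counts under the NC mimic, 9 and 5 under miR-200a, and 6 and 11 in the ELK3-labelled libraries, and was not called (log2 fold changes -1.11, 0.47 and -0.64 in the 3 comparisons). EPGN (0 to 7 counts), NRG2 (2 to 9) and NRG4 (2 to 10) were too low to be tested, and NRG3 was at 0 in all libraries. EPGN, EREG, AREG and BTC lie side by side within 486 kb of chromosome 4 (chr4:74308473-74794686, GRCh38). EREG and AREG, which are neighbours there, were both called lower in the ELK3-labelled libraries against the NC mimic, and BTC was not.

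The 8 genes of ligand shedding (ADAM10, ADAM17, ADAM9, ADAM12, RHBDF1, RHBDF2, TIMP3 and CD9) gave 0 calls in each comparison in the edgeR model of all 6 libraries. In that model 2, 4 and 1 had an unadjusted p under 0.05, beside 1169, 3867 and 3873 of the 12650 tested genes. With the compared groups alone, 3 of them were called higher with the mimic alone, where 4.77% of all tested genes were. These were ADAM12 (log2 fold change 1.46, adjusted p = 0.0285), CD9 (0.33, adjusted p = 0.0337) and RHBDF2 (0.49, adjusted p = 0.00727). ADAM12 had 18 and 4 counts under the NC mimic and 33 and 43 under miR-200a. ADAM10, the protease that cuts betacellulin and EGF, was at 161 and 172 CPM under the NC mimic, 178 and 155 under miR-200a, and 139 and 73.3 in the ELK3-labelled libraries. The last pair lay below the others and far from each other (log2 fold change against miR-200a -0.65, standard error 0.24, adjusted p = 0.0968).

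Of 26 genes of signal transduction below the receptors, 0 were called with the mimic alone. The same 2 (7.69%) were called in both comparisons of the ELK3-labelled libraries. As 12.9% of all tested genes were called there, the list did not stand above that share. With the compared groups alone in the model, NRAS was called with the mimic (log2 fold change 0.47, adjusted p = 0.0132), where 7.90% of all tested genes were. In the other comparisons 0 genes of the list were called, where 4.58% and 4.73% of all tested genes were. HRAS, a RAS GTPase, was at 48.8 and 39.8 CPM under the NC mimic, 43.8 and 39.9 under miR-200a, and 65.6 and 97.1 in the ELK3-labelled libraries. It rose by a log2 fold change of 0.96 against miR-200a (adjusted p = 0.0170) and 0.87 against the NC mimic (adjusted p = 0.0249). PTPN11, the phosphatase SHP2 that carries receptor signals to RAS, was at 100 and 92.0, 108 and 97.8, and 128 and 179 CPM in the same order. It rose by 0.58 (adjusted p = 0.0497) and 0.67 (adjusted p = 0.0312). For both genes the ELK3-labelled libraries were above the other 4, replicate 2 most. HRAS kept its call in 7 of 13 alternatives in either comparison, and PTPN11 in 2 and 6. Without that library, HRAS stood at 0.60 and 0.52 and PTPN11 at 0.28 and 0.38. Leaving out any NC mimic or miR-200a library ended the calls of both genes, with adjusted p-values of 0.0514 to 0.219 for HRAS and 0.0801 to 0.319 for PTPN11.

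Inhibitors and feedback regulators of the receptors were the list with most calls. Of 19 genes tested, 0 were called with the mimic alone, 6 for the ELK3-labelled libraries against miR-200a and 6 against the NC mimic (31.6% each), all lower, beside 5.91% and 5.95% of all tested genes called lower. With the compared groups alone in the model, 4 were called with the mimic, DUSP4 (0.45, adjusted p = 0.000131) and DUSP5 (0.35, adjusted p = 0.000423) higher and CBL (-0.33, adjusted p = 0.00545) and LRIG3 (-1.80, adjusted p = 0.0466) lower. LRIG3 had 24 and 10 counts under the NC mimic and 7 and 5 under miR-200a. In that model 7.90% of all tested genes were called with the mimic. For the ELK3-labelled libraries 4 of the list were called in each comparison, all lower, beside 2.27% and 2.38% of all tested genes. The medians of the list were -0.02, -0.46 and -0.44 in the 3 comparisons. Several genes of the list, the DUSP and Sprouty genes among them, are known to be induced by MAP kinase signalling. Not all of them were called. SPRY1 stood at log2 fold changes of -0.27 and -0.03 against miR-200a and the NC mimic. The related SPRED1 stood at -0.15 and 0.11 and SPRED2 at -0.20 and -0.23, also without a call. MAP kinase activity was not measured in these libraries, and its part in these values was not tested. The list was chosen with earlier results of these data known. The summed level of the line markers was lower in the same libraries, mostly through VIM (1410 ± 635 CPM against 2210 ± 90.9 under miR-200a, SD, n = 2), while AXL was at 896 ± 198 against 767 ± 9.16 CPM and ZEB1 at 103 ± 16.1 against 88.9 ± 7.87 CPM. CD44 was the 1 of these 6 markers called lower (adjusted p = 0.0151 against miR-200a).

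ERRFI1, the EGFR inhibitor with a seed site, was at 462 and 491 CPM under the NC mimic, 440 and 451 under miR-200a, and 263 and 200 in the ELK3-labelled libraries. Its log2 fold change was -0.10 for the mimic alone (adjusted p = 0.904), and it fell by 0.95 (adjusted p = 0.00446) against miR-200a and by 1.04 (adjusted p = 0.00243) against the NC mimic. The miR-200a and NC mimic libraries were close, and the ELK3-labelled ones far below. DUSP5, a nuclear phosphatase of ERK, was at 341 and 346, 448 and 417, and 212 and 155 CPM in the same order, and fell by 1.24 (adjusted p = 0.00236) and 0.90 (adjusted p = 0.00633). SPRY2, a Sprouty inhibitor of RAS signalling, was at 88.2 and 75.4, 66.9 and 76.2, and 38.6 and 31.3 CPM, and fell by 1.03 (adjusted p = 0.00705) and 1.23 (adjusted p = 0.00294). In all 3 genes the last pair of libraries was lowest and did not overlap the others.

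DUSP6, a cytoplasmic phosphatase of ERK, was at 390 and 367, 362 and 342, and 248 and 156 CPM, and fell by 0.80 (adjusted p = 0.0231) and 0.91 (adjusted p = 0.0145). DUSP4, another ERK phosphatase, was at 182 and 176, 237 and 245, and 154 and 126 CPM and fell by 0.78 (adjusted p = 0.00791) against miR-200a, with -0.35 (adjusted p = 0.112) against the NC mimic. CBLB, a ubiquitin ligase that marks active receptors for degradation, was at 11.6 and 14.0, 9.34 and 9.58, and 5.45 and 5.88 CPM and fell by 1.16 (adjusted p = 0.0309) against the NC mimic, with -0.74 (adjusted p = 0.125) against miR-200a. SPRY4 and CBL made up the other calls. With the compared groups alone, the calls of DUSP6 (adjusted p = 0.0678) and SPRY4 (adjusted p = 0.0987) against miR-200a and of CBLB (adjusted p = 0.0739) and CBL (adjusted p = 0.131) against the NC mimic were lost.

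Several of these calls were lost when a library was left out, always with the direction kept. Against miR-200a, the calls of ERRFI1 (-0.97 and -0.93, adjusted p = 0.0856 and 0.0862), SPRY2 (-1.12 and -0.94, adjusted p = 0.0813 and 0.117), DUSP6 (-0.76 and -0.84, adjusted p = 0.182 and 0.165) and DUSP4 (-0.80 and -0.76, adjusted p = 0.116 and 0.127) were lost without miR-200a replicate 1 and replicate 2 respectively, and that of DUSP5 (-1.18, adjusted p = 0.0632) without replicate 1. DUSP6 also lost it without NC mimic replicate 1 or 2 (adjusted p = 0.0682 and 0.0676). Against the NC mimic, leaving out NC mimic replicate 1 ended the calls of ERRFI1 (adjusted p = 0.0546), SPRY2 (adjusted p = 0.0720), DUSP5 (adjusted p = 0.0826), DUSP6 (adjusted p = 0.133) and CBLB (adjusted p = 0.129). Leaving out NC mimic replicate 2 ended those of ERRFI1 (adjusted p = 0.0657), DUSP5 (adjusted p = 0.0999), DUSP6 (adjusted p = 0.127) and CBLB (adjusted p = 0.202), and CBLB was also lost without miR-200a replicate 1 (adjusted p = 0.0733) or replicate 2 (adjusted p = 0.0736).

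Over all 60 other pathway genes, of which 55 were tested, 9 were called against miR-200a (16.4%, 2 higher and 7 lower) and 8 against the NC mimic (14.5%, 2 higher and 6 lower), beside 12.9% of all genes in each. With a library left out, both counts moved widely, and the share of all tested genes called in those fits is not given here.

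**Figure D4:**
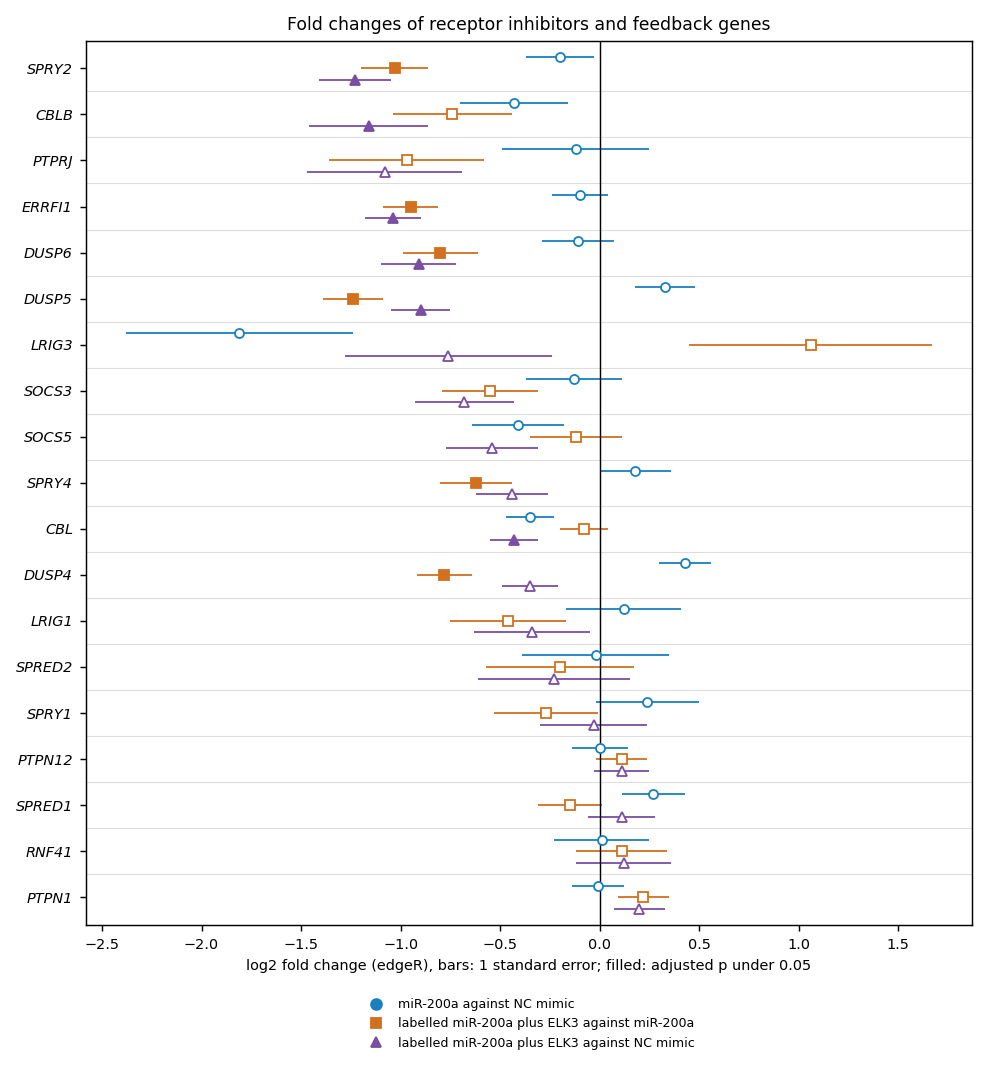
Log2 fold change of the 19 tested inhibitors and feedback regulators in the 3 comparisons (edgeR, all 6 libraries). Bars are 1 standard error and filled symbols mark an adjusted p under 0.05. The filled symbols all lie below 0 and belong to the ELK3-labelled libraries, with DUSP5 at -1.24 against miR-200a and SPRY2 at -1.23 against the NC mimic.

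The genes whose levels followed the called ligands most closely over the 6 libraries were picked by Pearson's r of log2 CPM among 9936 genes, as a description without a test, since so few libraries in 3 groups give high values readily. For AREG they were TXNIP, PLD1 and CLIP2 (r = 0.997 each), for EREG GNG10 (r = 0.990), CTH (r = 0.989) and LATS2 (r = 0.988), and for HBEGF SLC4A7 (r = 0.991), MYH10 (r = 0.990) and FECH (r = 0.987).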

How the data were processed

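RNA was measured in 6 libraries of MDA-MB 231 cells, 2 in each of 3 groups taken from the sample labels. The values are raw counts for each gene symbol, which the authors deposited from QuantSeq 3′ mRNA libraries. The labels' processing notes name Bowtie2, edgeR and hg19, and the methods name ExDEGA; the counting program, its strand setting and the annotation are not given in the sources used here. There are 25737 lines a library for 24462 symbols; lines that share a symbol (286 symbols) were summed.

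The main test was the quasi-likelihood test of edgeR 4.0.16 (R 4.3.3), after TMM normalization and filterByExpr (minimum count 10), with 3 residual degrees of freedom. Alternatives were DESeq2 1.42.0, limma 3.58.1 on quantile-normalized log2(count + 1), upper-quartile normalization, other filters on low counts, a model of the compared groups alone, a replicate block, the call rule of the study, and each library left out in turn. Where a group then held 1 library, it was assumed to vary like the others. In simulated data of 12650 genes for the ELK3-labelled libraries against miR-200a, the share of altered genes called was 61.9% at 2-fold and 92.8% at 4-fold, with 3.85% false calls. The simulation altered 200 genes and gave all groups the same spread. In the data 12.9% of genes were called and the ELK3-labelled libraries stood further apart. These rates therefore need not hold for the data.

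The members and gene lists were chosen with earlier results of these data known. Named are the 8 genes, ELK3, ERRFI1, the other family receptors and ligands, and at most 6 called genes of each other list, those with the largest change; ADAM10, ADAM12, CD9, RHBDF2, NRAS, LRIG3, SPRY4 and CBL were named after their values were seen. Sites were searched in GENCODE release 29 (GRCh38).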

Additional observations from a re-analysis of the deposited data

How the results depend on the processing

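No called result of the 8 genes changed direction under the alternatives run. Over the 8 genes and 3 comparisons, 267 values kept their side of the threshold, 31 passed it only in an alternative and 11 lost it.

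Members called for miR-200a against the NC mimic (0 in the report) were 2 by the call rule of the study, 5 with the compared groups alone and 2 with no filter. For the ELK3-labelled libraries against miR-200a (1), they were 3 by the rule of the study, 3 with upper-quartile normalization, 4 with no filter and 2 with at least 10 counts in each library. Against the NC mimic (3), they were 1 by limma. With a library left out, the number of members called also moved in each comparison. The share of all tested genes called is given here only for the main fit, the compared groups alone and the rule of the study. The other counts cannot be set against it.

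The same limit holds for the other pathway genes. Their counts with no filter, by limma or with a library left out cannot be set against a share of all tested genes. Other pathway genes called were, in the first comparison (0), 2 by the rule of the study and 8 with the compared groups alone. In the second (9) they were 4 with the compared groups alone, 16 with no filter, 0 by limma and 0 to 27 with a library left out. In the third (8) they were 14 by the rule of the study, 4 with the compared groups alone, 14 with no filter, 3 by limma and 0 to 28 with a library left out.

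With the replicate block, the members called stayed at 0, 1 and 3. The other pathway genes called were 0, 6 and 6, against 0, 9 and 8 in the main fit. Libraries of the same number did not deviate together (correlations of -0.003, -0.036 and -0.108), so the numbers are not shown to pair them, and ERBB3 lost its call under the block (adjusted p = 0.0644). Among the tested family and pathway genes named, depth limits BTC, NRG1, ERBB3, EGF, LRIG3 and ADAM12 most. Some of their libraries held fewer than 20 counts. The spread rests on 2 libraries a group, and the cause of the differences between settings was not tested.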

Other observations

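CD9, a tetraspanin that binds the precursors of HBEGF and TGFA, was singled out after its values were seen. It was at 168 and 237 CPM under the NC mimic, 265 and 230 under miR-200a, and 207 and 40.0 in the ELK3-labelled libraries. Replicate 2 of that group was far below the other 5 libraries, and CD9 was not called in any comparison with all 6 libraries in the model (adjusted p = 0.927, 0.214 and 0.383). With the compared groups alone, it was called for the mimic against the NC mimic (log2 fold change 0.33, adjusted p = 0.0337). VIM, the intermediate filament of mesenchymal cells, was at 956 CPM in the same library against 1850 CPM in replicate 1.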
